A study of Homo sapiens with 6 samples.

Results

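The HOXB cluster on human chromosome 17 was examined in M07e, an established cell line of acute megakaryoblastic leukemia kept in medium with GM-CSF. The comparison was between M07e cells with a CRISPR-based DNMT3B knockout (3 libraries) and control M07e cells labelled WT (3 libraries). DNMT3B is a de novo DNA methyltransferase. The labels do not say whether the knockout is 1 clone, or whether libraries of a group came from separate cultures, so any spread between libraries may be technical. Methylation was measured by reduced representation bisulfite sequencing, in which MspI cuts DNA at CCGG so that CpG-rich sequence is favoured. The values are those of the authors' deposited table of 35130 regions, which gives 1 mean methylation level per group and region, the difference between these means and a q-value. Levels of single libraries and read depth were not analysed here. The values therefore carry no replicate error, and depth is unknown. The control column is named M07e_WT. No label contains M07e_3883, the header of the other column. It was read as the knockout, the one genotype left, and all directions depend on that.

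The members were the 10 protein-coding genes HOXB1 to HOXB9 and HOXB13, and the regions were those that overlap a member's RefSeq span (GRCh38.p14, the same build as the table's hg38) or lie within 10 kb of it. Regions were taken by position, but the cluster itself was chosen with earlier results of these data known, so its called share is a description. It gave 36 of the 35130 regions, with 358 CpG sites, of which 23 overlap a member. The region nearest the limit on the inside lay 7558 bases above HOXB9 (63.0% in the knockout, 32% in the control), and the nearest on the outside 16315 bases above it (32.7% in the knockout, 64.8% in the control). A site of the table is 1 cytosine on 1 strand, so that a CpG read on both strands counts as a pair of sites. Of 2459 regions of the table that lie wholly in a RefSeq promoter window, 1868 list more sites than the window holds CpG dinucleotides there, and 0 list more than its CpG cytosines on both strands.

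HOX genes encode homeodomain transcription factors that give cells their position along the body axis, and their order along a cluster follows the order in which they are expressed from head to tail. HOXB1 lies at the end of the cluster expressed earliest and most toward the head, HOXB13 at the opposite end, and all members are transcribed in the same direction, so that the upper annotated end of each is its 5' end. In blood, HOX genes are active in stem and progenitor cells and are silenced as cells mature, and several are expressed at high level in acute leukemias. In many cell types silent HOX clusters carry Polycomb marks, and their CpG islands can gain DNA methylation in cancer.

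A few stretches of RefSeq sequence show where regions of the table fell relative to annotated start sites. They run 5' to 3' on the gene's strand with every CpG dinucleotide in capitals, and each window covers 250 bases before to 50 bases after an annotated start. The first is the promoter of PRAC2, the gene beside HOXB13 (chr17:48723442-48723741, plus strand), shown because a called region lies wholly inside it. The second is the window of HOXB-AS1, an antisense RNA gene that overlaps HOXB2 (chr17:48544101-48544400, plus strand), shown because the HOXB2 region with the largest gain ends 42 bases from it. The third is the promoter of HOXB1 (chr17:48530962-48531261, minus strand), the one member with a window in the sequence table used here.
PRAC2: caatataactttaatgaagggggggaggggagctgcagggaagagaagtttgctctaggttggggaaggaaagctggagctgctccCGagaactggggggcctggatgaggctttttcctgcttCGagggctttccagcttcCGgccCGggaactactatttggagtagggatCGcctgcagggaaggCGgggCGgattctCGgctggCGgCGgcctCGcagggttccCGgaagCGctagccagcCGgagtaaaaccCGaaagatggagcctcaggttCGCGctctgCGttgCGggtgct
HOXB-AS1: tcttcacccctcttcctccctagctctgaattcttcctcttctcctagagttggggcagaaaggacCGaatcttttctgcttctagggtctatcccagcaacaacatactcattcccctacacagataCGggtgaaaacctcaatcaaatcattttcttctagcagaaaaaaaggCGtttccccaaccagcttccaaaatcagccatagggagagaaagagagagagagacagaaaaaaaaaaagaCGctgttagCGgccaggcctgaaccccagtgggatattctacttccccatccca
HOXB1: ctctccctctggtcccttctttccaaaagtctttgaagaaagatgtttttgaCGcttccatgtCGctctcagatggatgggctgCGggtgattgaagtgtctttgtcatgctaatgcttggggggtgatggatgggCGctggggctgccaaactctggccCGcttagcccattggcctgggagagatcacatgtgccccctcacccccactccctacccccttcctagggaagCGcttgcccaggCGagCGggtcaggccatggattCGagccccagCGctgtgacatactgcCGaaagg
The PRAC2 window has 19 CpGs and 4 CCGG sites, the HOXB-AS1 window 5 CpGs and 0 CCGG sites, and the HOXB1 window 11 CpGs and 0 CCGG sites. CCGG reads the same on both strands, and 63.1% of the 35116 windows in the sequence table hold at least 1. The median window has 14 CpGs (quartiles 4 and 28). No region of the table lies inside the HOXB-AS1 or HOXB1 window.

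Across the cluster the methylation level was higher in the knockout column in 69.4% of the regions, close to the 68.4% of all regions. The call rule asks for a deposited q under 0.01 and an absolute difference of at least 25 percentage points, and 6 of the 36 regions passed it. The 6 called regions are 16.7% of the HOXB regions, against 6.74% of all regions of the authors' deposited table. With a difference of at least 10 points the count was also 6 (8.6% of all regions), while at least 40 points left 2 (3.42%), at HOXB2 and HOXB7. With q under 0.05 there were 10 (10.5%), with q under 0.001 there were 5 (3.31%), and with Benjamini-Hochberg adjustment of the deposited Kolmogorov-Smirnov p over all regions 5 (4.12%), HOXB2 being the one not called under the last 2. At the original thresholds the called regions comprised 4 regions that rose, in HOXB2, HOXB3, HOXB8 and HOXB9, and 2 that fell, in HOXB7 and in PRAC2 beside HOXB13. Over the whole table, 4.57% of regions were called higher and 2.17% lower. Libraries could not be tested against each other. With 3 libraries against 3 an exact two-sided rank test cannot go below p = 0.1, so the deposited p-values must rest on more points than the libraries and do not measure the spread between libraries.

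The median HOXB region was methylated at 33.3% in the knockout, against 23.5% in the control, with a median difference of 27 points. Over the whole table these values were 30.9% in the knockout, 7.59% in the control and a median difference of 17.4 points. Weighted by sites, the HOXB mean was 39.0% in knockout cells, against 20.8% in control cells, a difference of 18.1 points, against 30.5% in the knockout, 17% in the control and 13.5 points over all regions. Of the 36 regions, 25 were higher in the knockout (69.4%) and 11 lower, a share close to the 68.4% of all regions. A level of 50% or more was found in 11 regions in the knockout and in 8 in the control. A level under 10% was found in 5 regions in the knockout and in 10 in the control.

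**Figure D1:**
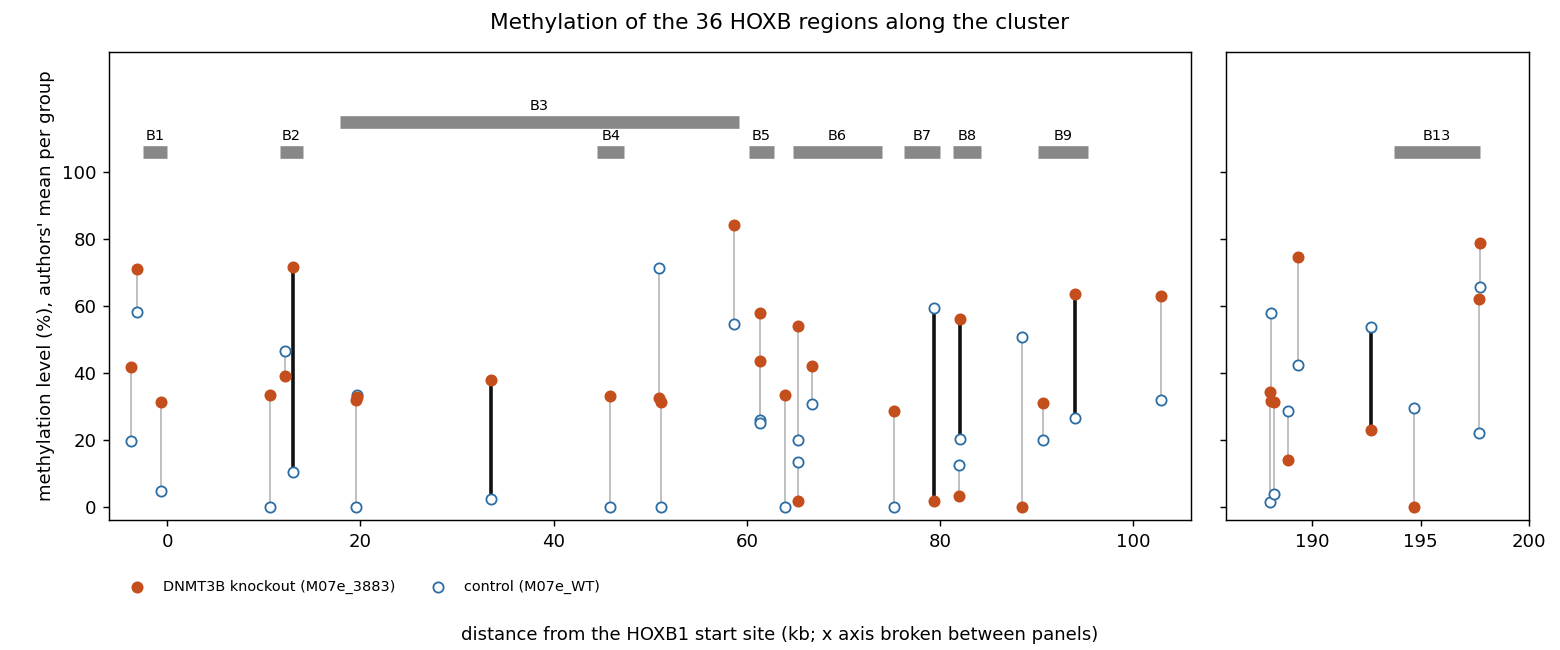
Methylation level (%, authors' mean per group) of the 36 HOXB regions against distance from the HOXB1 start site in kb, with filled points for the DNMT3B knockout (M07e_3883), open points for the control (M07e_WT), a line joining the 2 means of a region (black where called) and grey bars for the spans of the members. Called gains at HOXB2, HOXB3, HOXB8 and HOXB9 stand beside the called losses at HOXB7 (1.59% in the knockout, 59.6% in the control) and next to HOXB13.

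The head end of the cluster, HOXB1 to HOXB3, held 12 of the regions by nearest member, of which 2 were called, both gains. HOXB1, which patterns the hindbrain, had 3 regions within 10 kb and 0 called. Inside the gene, 522 bases below its upper end (48530193 to 48530489, 13 sites), the level was 31.3% in the knockout and 4.76% in the control, with a deposited q of 0.153. Below the gene, 27 sites at 48527184 to 48527413 were at 41.9% in the knockout and 19.8% in the control (q = 0.133), and 5 sites at 48527803 to 48527879 were at 71.2% in the knockout and 58.1% in the control (q = 1). All 3 were higher in the knockout, and none of these differences passed.

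HOXB2, another hindbrain patterning gene, carried the largest gain of the cluster. At 48543966 to 48544059, 1050 bases below the upper end of the gene, 6 sites rose to 71.6% in the knockout, against 10.5% in the control, a difference of 61.1 points (deposited q = 0.0045). Only 328 of the 35130 regions had a larger gain. The other region inside the gene (48543209 to 48543247, 5 sites) was at 39.0% in the knockout and 46.7% in the control (q = 1), and lies 719 bases below the gain. A region 920 bases below the gene (48541606 to 48541735, 6 sites) was at 33.3% in the knockout and 0% in the control (q = 1).

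HOXB3 is active with HOXB4 in blood stem and progenitor cells, and its annotated span covers HOXB4 and the microRNA gene MIR10A. It held the HOXB region with the most sites, 54 over 389 bases (48564302 to 48564690), a number that 28 regions of the whole table reach. This stretch inside the gene rose to 37.9% in the knockout, against 2.35% in the control, a difference of 35.6 points with a deposited q of 1.01e-06, the lowest q of the cluster. Of the 7 regions that overlap HOXB3, 5 were higher in the knockout and 2 lower. Near the upper end, 547 bases inside it, 5 sites at 48589596 to 48589694 were at 84.2% in the knockout and 54.7% in the control (q = 0.0443), the highest knockout level of the 36 regions. At the lower end, where HOXB-AS1 overlaps, 8 sites at 48550531 to 48550573 were at 31.8% in the knockout, against 0% in the control. The next 8 sites, which begin 28 bases on at 48550601, were at 32.8% in the knockout and 33.3% in the control (q = 1 for both).

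Within HOXBLINC, a long noncoding RNA gene between HOXB4 and HOXB5 that is known to act on HOXB genes in blood progenitors, neighbouring regions lay in opposite directions. At 48581919 to 48582023, 12 sites were at 32.5% in the knockout, against 71.3% in the control (q = 0.0289), the largest difference toward loss between HOXB1 and HOXB6 that was not called. Starting 17 bases further on, 13 sites at 48582040 to 48582279 were at 31.4% in the knockout and 0% in the control (q = 1). These are also 2 of the regions inside HOXB3. MIR10A, which encodes a microRNA that targets HOX transcripts, had no region inside its hairpin, and its nearest region began 1972 bases away.

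The central members HOXB4 to HOXB8 held 11 regions by nearest member, of which 1 was called higher and 1 lower. HOXB4, known for expanding blood stem cells when overexpressed, had 1 region inside it, with 10 sites at 33% in the knockout and 0% in the control (48576867 to 48576893, q = 1). HOXB5 marks long-term blood stem cells in mice, and its 2 regions lay next to each other, with 8 sites at 43.6% in the knockout and 26.0% in the control (48592312 to 48592338, q = 0.636) and 5 sites at 57.8% in the knockout and 25% in the control (48592343 to 48592354, q = 0.475). Both were higher in the knockout without a call.

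HOXB6, which is expressed in early blood progenitors, had 3 regions inside its span and 0 of them called. The one with the lowest q had 10 sites at 53.9% in the knockout and 19.8% in the control (48596253 to 48596286, q = 0.123), 246 bases from the HOXB-AS3 promoter window. Only 9 bases on, 6 sites at 48596295 to 48596328 were at 1.74% in the knockout and 13.5% in the control (q = 1). The last region inside the gene, with 8 sites, was at 42.0% in the knockout and 30.6% in the control (48597717 to 48597764, q = 1). Below the gene, 5 sites at 48594868 to 48594995 were at 33.3% in the knockout and 0% in the control (q = 1).

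HOXB7, a homeobox gene overexpressed in several carcinomas, carried the largest loss. Its single region inside the gene, 616 bases below the upper end (48610281 to 48610401, 9 sites), fell to 1.59% in the knockout, against 59.6% in the control, a difference of -58.0 points (deposited q = 0.000123). A larger loss was found in 153 regions of the whole table. Below the gene, 14 sites at 48606201 to 48606259 were at 28.5% in the knockout and 0% in the control (q = 1), so that the regions on either side of the HOXB7 span's lower end lay in opposite directions.

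HOXB8, which immortalises myeloid progenitors when overexpressed in mouse cells, had 2 regions inside it. At 48613046 to 48613074, 12 sites rose to 56.1% in the knockout, against 20.3% in the control, a difference of 35.8 points (deposited q = 2.08e-05). The 8 sites that end 42 bases below, at 48612921 to 48613004, were at 3.30% in the knockout and 12.3% in the control (q = 0.0378), under the difference threshold and in the other direction.

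HOXB9, a gene of the trunk, was called higher at 5 sites 1404 bases below its upper end. At 48624941 to 48624954 they rose to 63.7% in the knockout, against 26.4% in the control, a difference of 37.3 points (deposited q = 9.82e-06). The other region inside the gene (48621710 to 48621721, 5 sites) was at 31.1% in the knockout and 20.0% in the control (q = 1). Outside the gene, 5 sites 1651 bases below it were at 0% in the knockout and 50.7% in the control (48619481 to 48619505), a difference of -50.7 points whose deposited q was nevertheless 1. Above it, 7 sites in HOXB-AS4 were at 63.0% in the knockout and 32% in the control (48633916 to 48633948, q = 0.604). That region is also the nearest to MIR196A1, another microRNA gene that targets HOX transcripts, 1357 bases away.

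HOXB13, which is needed in the prostate and stands apart from the rest of the cluster, had 9 regions within 10 kb, of which 5 were higher and 4 lower in the knockout. The called one lay in PRAC2, 1029 bases below HOXB13. Its 7 sites (48723720 to 48723734) fell to 23.0% in the knockout, against 53.7% in the control, a difference of -30.7 points (deposited q = 0.000455). They lie 28 to 42 bases after an annotated start of PRAC2, at the end of the PRAC2 sequence printed above. With 1 base added on each side (chr17:48723719-48723735, plus strand, CpGs in capitals), the region reads as follows.
PRAC2 region: tCGCGctctgCGttgCG
Its 4 CpGs give 7 cytosines between its first and last position, and all 7 are counted as sites. This was the called region with the smallest difference.

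At the upper, 5' end of HOXB13 neighbouring regions were both higher in the knockout. There 7 sites at 48728684 to 48728712 were at 62.1% in the knockout and 22% in the control, a difference of 40.2 points (q = 0.0417), the largest gain of the cluster that was not called. The next 11 sites (48728713 to 48728753), which run 3 bases past the end of the gene, were at 78.8% in the knockout and 65.8% in the control (q = 1). Inside HOXB13, 5 sites at 48725691 to 48725714 were at 0% in the knockout and 29.4% in the control (q = 1).

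The remaining HOXB13 regions lay in PRAC2, 4385 to 5681 bases below the gene. The one with the lowest q among uncalled HOXB regions had 22 sites at 34.2% in the knockout and 1.52% in the control (48718993 to 48719082, q = 0.0196). The next 5 sites were at 31.7% in the knockout and 57.8% in the control (48719089 to 48719119, q = 0.953), and the 7 after them at 31.3% in the knockout and 3.81% in the control (48719120 to 48719308, q = 1). These neighbouring regions thus lay higher, lower and higher in the knockout. Further on, 5 sites were at 14.0% in the knockout and 28.5% in the control (48719869 to 48719891, q = 0.0426), and 10 sites at 74.7% in the knockout and 42.2% in the control (48720331 to 48720378, q = 0.228).

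**Figure D2:**
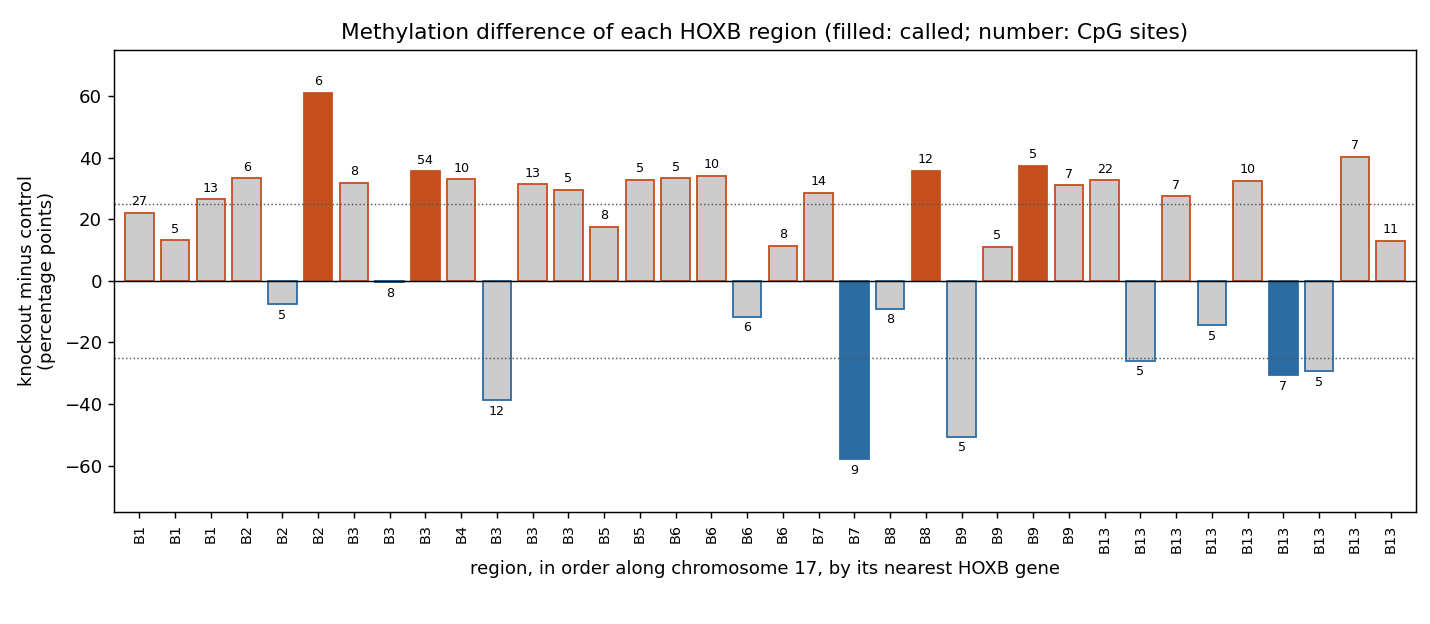
Difference in methylation level (knockout minus control, percentage points) of the 36 HOXB regions in order along chromosome 17, labelled by nearest member, with filled bars for called regions, the number of CpG sites at each bar and dotted lines at 25 points in either direction. The bars run from -58.0 points at HOXB7 to 61.1 points at HOXB2, and many uncalled bars lie beyond the dotted lines.

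Size alone did not separate called from uncalled regions. A difference of at least 25 points was found in 25 of the 36 regions (69.4%), against 52.0% of all regions. Of these 25, 6 were called and 9 had a deposited q of 1. In all, 44.4% of the HOXB regions had a q of 1, against 51.3% of all regions. The 6 regions with a q under 0.01 all differed by at least 30.7 points, so the difference threshold removed none. In 8 regions 1 group mean was exactly 0, and in each of these the deposited Kolmogorov-Smirnov p and q were 1. In 6 of them the control was at 0% and the knockout between 28.5% and 33.3%: these lay in or nearest to HOXB2, HOXB3 (both in its lower part and in HOXBLINC), HOXB4, HOXB6 and HOXB7. Counted alike as a control mean of 0 and a knockout mean between 25% and 33.3%, such regions made up 16.7% of the HOXB regions and 21.0% of all regions. Over the whole table, 10807 regions had a group mean of exactly 0 and 0 of them were called. How sites that were not covered in a library entered these means is not stated by any source used here, and its part in the levels was not tested.

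Knockout levels between 28% and 34% were found in 12 of the 36 regions (33.3%), close to the 28.2% of all regions. Of the 6 called regions 0 were among them, but the called HOXB3 region (37.9% in the knockout) lies just above that range. Only 6 of the 12 had no group mean at 0, and regions with a mean at 0 were never called. Without the 8 regions at 0, the median difference over the other 28 was 19.9 points, with 19 higher and 9 lower in the knockout. The called regions had a median of 8 sites, against 7.5 in the uncalled ones.

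**Figure D3:**
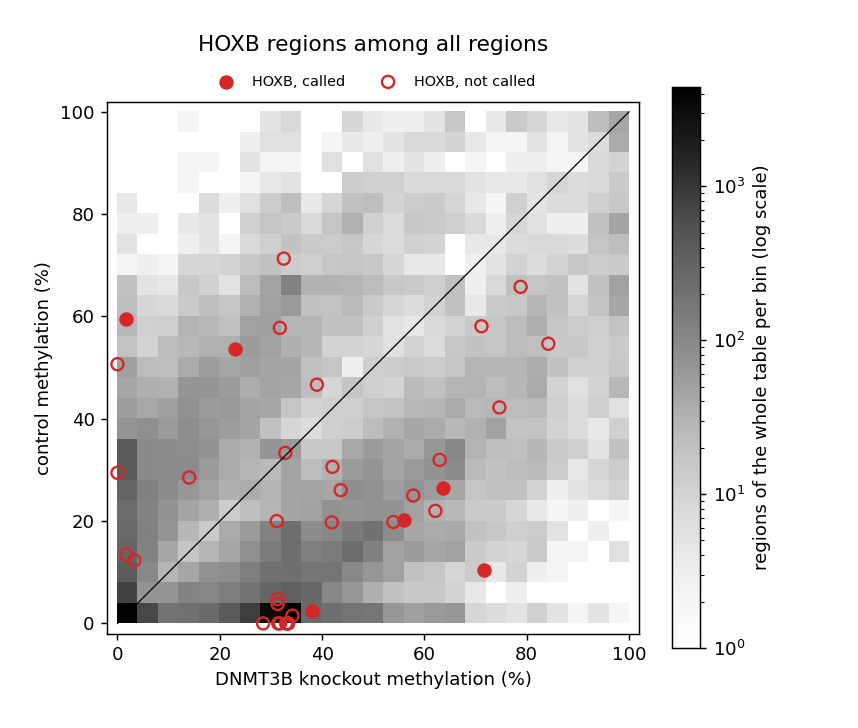
Methylation level in the DNMT3B knockout (x axis, %) against the control (y axis, %) for the 36 HOXB regions (red, filled where called), over the number of regions of the whole table in each grey bin on a log scale, with the line of equal levels. The called gains lie below the line and the called losses above it, and several uncalled HOXB regions sit at 0% in the control near 33.3% in the knockout.

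Some close neighbours in the cluster lay in opposite directions. Of 8 pairs of consecutive regions at most 100 bases apart, 6 differed in the sign of the difference, with no minimum size, 1 each in the lower part of HOXB3, HOXBLINC, HOXB6 and HOXB8 and 2 in PRAC2. The pair in HOXB3 counts through a region that differed by -0.521 points only. Among all regions, 1484 of 3087 such pairs did (48.1%). The pairs that shared a direction were those in HOXB5 and at the 5' end of HOXB13, higher in the knockout in both regions. How the boundaries between neighbouring regions were drawn is not stated by any source used here, and its part in these directions was not tested. With 8 pairs, nothing further was read from these shares.

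The other HOX clusters, taken by the same rule, are given beside HOXB as a description. HOXB had 6 called of 36 regions (16.7%), HOXA 5 of 41 (12.2%), HOXC 8 of 38 (21.1%) and HOXD 3 of 45 (6.67%). Called gains and losses numbered 4 and 2 at HOXB, 1 and 4 at HOXA, 7 and 1 at HOXC, and 1 and 2 at HOXD. The median difference was 27.0 points at HOXB, 18.2 at HOXA, 14.7 at HOXC and 11.1 at HOXD, and the site-weighted mean difference 18.1, 9.68, 14.0 and 5.22 points in the same order. The control mean was exactly 0 in 6 regions at HOXB, 15 at HOXA, 1 at HOXC and 6 at HOXD. Without regions with a group mean of 0 the HOXB median was 19.9 points. The medians of the other clusters were not worked out in that way. The clusters were not tested against each other, since neighbouring regions are not independent and each group has 1 mean.

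**Figure D4:**
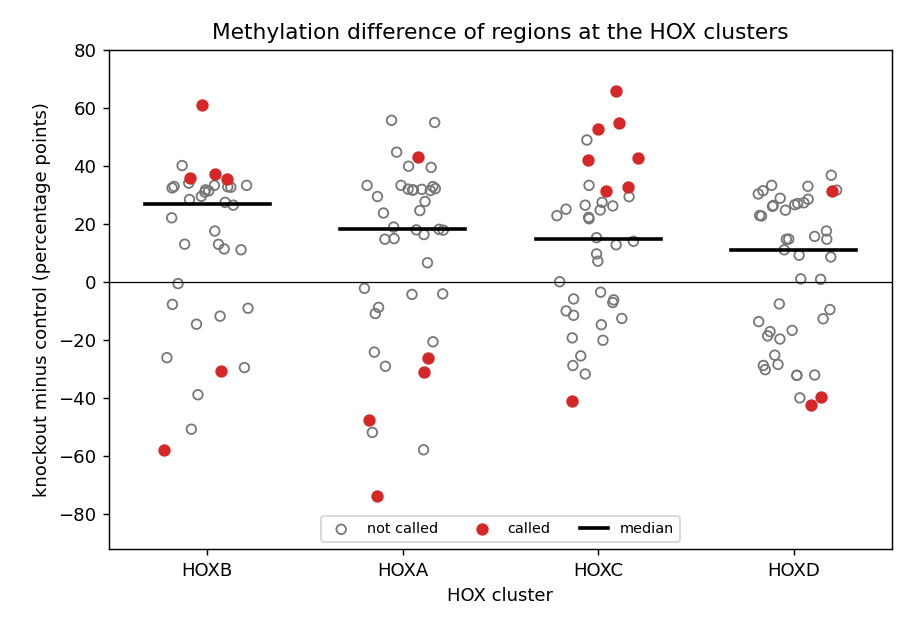
Difference in methylation level (knockout minus control, percentage points) of every region at the HOXB, HOXA, HOXC and HOXD clusters, 1 point per region (red where called; spread sideways at random), with the median as a black line. The HOXB median of 27.0 points is above those of HOXA (18.2), HOXC (14.7) and HOXD (11.1), and each cluster holds called regions on both sides of 0. All medians include regions with a group mean of exactly 0, without which the HOXB median is 19.9 points. The other medians were not worked out in that way, so 19.9 cannot be compared with them.

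HOX proteins bind DNA with TALE homeodomain cofactors of the MEIS, PBX and PKNOX families. Of 9 such genes, 7 had a region within 10 kb and 4 a called one, a share that was not worked out for all genes. Of the 41 regions at these 9 genes, 5 were called (12.2%, against 6.74% of all regions). Among the 2368 called regions of the whole table, 1606 were higher in the knockout, and so were all 5 of these. They lay inside PBX3 (61.1% in the knockout, 2.38% in the control), PKNOX2 (31.2% in the knockout, 2.58% in the control) and MEIS3 (51.8% in the knockout and 11.8% in the control, and 47.8% in the knockout and 4.41% in the control), and 8598 bases from MEIS1 (57.2% in the knockout, 14.4% in the control), the cofactor best known from leukemia. The deposited q was 4.71e-05 at MEIS1, 0.000456 at PBX3, 0.00954 at PKNOX2, and 0.00938 and 0.000328 at MEIS3. The PKNOX2 value and the first MEIS3 value lie just under the threshold of 0.01.

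Of 16 genes that regulate HOX expression, such as CDX activators, the KMT2A complex and Polycomb subunits, 15 had a region and 5 a called one. Of the 67 regions at these 16 genes 8 were called, of which 6 were higher and 2 lower in the knockout. The share of genes with a called region was again not worked out for all genes. Both called regions at CDX2 rose (95.5% in the knockout and 43.5% in the control inside the gene, and 35.0% in the knockout and 8.21% in the control 8222 bases away), as did the one inside CDX4 (61.9% in the knockout, 14.8% in the control). Near CBX8, which encodes a Polycomb protein, 3 called regions rose to between 41.3% and 45.4% in the knockout, against 5.32% to 12% in the control. A region within 10 kb of both CBX2 and CBX8 fell to 4.81% in the knockout, against 47.6% in the control, and a region 6061 bases from CTCF, the insulator protein gene, fell to 0.66% in the knockout, against 37.1% in the control. The deposited q was 0.00567 and 0.00637 at CDX2, 0.00165 at CDX4, 0.0055 for the CBX2 and CBX8 region and 0.000137 near CTCF. The CBX8 gains had a q from 0.000331 to 0.00638. The cofactor and regulator lists were not run at the other thresholds or with the other adjustment. The called share was 12.2% for the cofactors and 11.9% for the regulators, against 6.74% of all regions. Both lists were chosen with earlier results of these data known, so these shares are a description.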

How the data were processed

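DNA of 6 libraries (3 DNMT3B knockout, 3 control) was analysed by reduced representation bisulfite sequencing. Per the submitters' processing notes, methylKit, Bismark, HISAT2, Trimmomatic and FastQC were used with hg38, with no roles or versions stated; no source used here names the program that made the regions. Per the file headers, the authors deposited for each region the methylation level as a percent (1 mean per group), the mean difference (a signed score in percentage points), a count of CpG sites, a q-value and p-values from Mann-Whitney and 2-dimensional Kolmogorov-Smirnov tests. How q was derived is not given. With no values of single libraries, no new test was made; the depth per library, and the precision it gives, are unknown.

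Of 3092 region starts that fall in RefSeq promoter windows, all 3092 have a CpG cytosine (either strand) 2 bases above the listed start and 1579 have one 1 base above it; all 3049 listed stops have one 1 base above. Positions are therefore printed as the first and last cytosine, 1-based (listed start plus 2, listed stop plus 1), which is 1 base higher than a plain half-open reading. Regions were taken within 10 kb of RefSeq spans with Python 3.11.15, pandas 2.3.3 and numpy 2.4.6, and the distance and call steps were tested on simulated data. The annotation gives no strand or exons, so no exon or intron class is stated. All called regions are described, with, per member, the regions of lowest q and most sites. The members, lists and call rule were chosen with earlier results of these data known. Alternatives covered both thresholds, the adjustment, the window, low site numbers, means at 0 and merging.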

Additional observations from a re-analysis of the deposited data

How the results depend on the processing

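The depth, and with it the precision of every level, is unknown. Windows of 5 kb and 50 kb and merging within 1000 bases each left 6 called regions. A minimum of 5 sites, leaving out regions with a group mean of exactly 0, and a difference of at least 10 points also left 6. For these alternatives the outcome was fixed. All 36 regions have at least 5 sites, and 0 regions with a group mean of 0 were called. The smallest HOXB difference with q under 0.01 was 30.7 points in size. At 40 points 2 were left, 1 higher and 1 lower. With q under 0.05 there were 10, 7 higher and 3 lower, the added ones lying in HOXBLINC, at the upper end of HOXB3, in PRAC2 and at the 5' end of HOXB13. HOXB2 was not called with q under 0.001 or after Benjamini-Hochberg adjustment over all regions (0.0189), and the other 5 were. Counting regions that overlap a member left 5, with 1 lower, since the PRAC2 region lies outside HOXB13. The median difference was 26.5 points for overlap, 24.3 within 5 kb, 22.1 within 50 kb and 19.9 without means at 0; the site-weighted mean was 18.4, 17.3, 17.5 and 17.6 points in the same order. No result changed direction under the alternatives run. No paired analysis was possible because the table holds 1 mean per group and no values of single libraries; leaving out replicates was not possible for the same reason.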

Other observations

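Between HOXB9 and HOXB13, more than 10 kb from either, 4 further regions of the authors' deposited table lay in the long noncoding RNA genes LINC03057 and LINC02086, and 0 of them were called. One of 7 sites was at 32.7% in the knockout and 64.8% in the control (chromosome 17, 48642673 to 48642706, q = 0.604). The other 3 were higher in the knockout: 45.3% in the knockout and 28.3% in the control (48646252 to 48646287, q = 0.214), 47.0% in the knockout and 0% in the control (48646837 to 48646888, q = 1), and 23.7% in the knockout and 9.34% in the control (48647455 to 48647549, q = 0.654).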
